A study of Drosophila melanogaster with 10 samples.

Results

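Ribosomes of the fruit fly are built from a fixed set of proteins, several of which are encoded by a pair of duplicated genes. In such pairs 1 gene is typically transcribed in nearly all cells, whereas its partner is known mainly from the gonads, where germ cells make large amounts of RNA and protein for eggs and sperm. The Malpighian (renal) tubule is a somatic secretory epithelium with no germ cells, so it offers a view of the broad partner and its gonad-rich counterpart away from the ovary and testis. The duplicated pairs of cytosolic ribosomal protein genes followed here, 5 in number, were RpS5a and RpS5b, RpS10a and RpS10b, RpS19a and RpS19b, RpL22 and RpL22-like, and RpL10Aa and RpL10Ab.

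A member was taken from the arrays where a probe set is annotated with that gene and no other. Of the 10 genes listed, 6 had such a probe set, 1 each, among 13966 probe sets tested that name 10844 single genes. These are the 5 gonad-rich forms RpS5b (CG7014, chromosome arm 3R), RpS10a (CG12275, 3R), RpS19b (CG5338, 3R), RpL22-like (CG9871, 2R) and RpL10Aa (CG3843, 3R), and 1 broad form, RpL10Ab (CG7283, 3L). The 4 remaining broad forms, RpS5a, RpS10b, RpS19a and RpL22, all lie on the X chromosome, had no single-gene probe set in the annotation and were not analysed here. Thus 1 pair of 5 was measured with both partners, and 4 pairs were measured through the gonad-rich partner alone. None of the 6 probe sets carries a suffix for a shared gene family, but how far each is specific for 1 partner was not tested.

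The samples were tubules and, for comparison, whole flies of the Oregon R strain, of both sexes together, all aged 7 days. Each of the 2 groups had 5 Affymetrix arrays, numbered 2 to 6, and a tubule array and a whole fly array of 1 number came from 1 culture. Tubules were pooled from many animals, as were the whole flies, which contain their own tubules as well as the gonads. Values are MAS 5.0 signals on a linear scale of brightness, with each array scaled to the same trimmed mean. Signals of different probe sets are not on a common scale, so partners were compared only through their ratios of tubule to whole fly signal. The study itself takes the signal, with caution, as an estimate of levels between genes. Sums over marker lists mix probe sets, weigh the bright ones most and serve only to describe the arrays.

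Of 8 tubule genes listed, 6 were measured and all 6 were higher in tubule. Their summed signals were 5373 to 6662 in tubule arrays and 316.9 to 373 in whole fly arrays. The study reported these genes as enriched in tubule from the same arrays, so this is no test of the tubule label. Of the gonad markers, 14 of 15 female germline genes and 16 of 22 testis and sperm genes were lower in tubule, and 0 of either list were higher. Over all probe sets, 16.8% were called higher in tubule and 36.3% lower (limma, matched pair as a block, adjusted p under 0.05), and the median log2 fold change was -0.32. A lower signal in RNA of a whole tissue may reflect fewer cells of a type or less RNA per cell, and these cannot be told apart.

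Of the 5 gonad-rich partners, 3 were called lower in tubule (RpS5b, RpS10a and RpL10Aa), beside 36.3% of all probe sets. The other 2, RpS19b and RpL22-like, did not pass. RpS5b, whose signals were all above 50, was 15.7-fold lower. RpS10a and RpL10Aa were under 50 in every tubule array, a range in which signals are poorly determined; with signals under 50 raised to 50, RpS10a was 3.08-fold lower and RpL10Aa was no longer called. The median log2 fold change of the 5 was -3.58 with signals as deposited, beside -0.32 over all probe sets, and -0.22 with that floor, beside 0.0 over all probe sets. The broad partner RpL10Ab, in contrast, gave a mean ratio of tubule to whole fly of 1.23 ± 0.152 (SD, n = 5 pairs).

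RpS5b, a small subunit gene, is known in Drosophila from the female germline. Its signals were 295.9, 108.4, 89.0, 380.4 and 91.7 in tubule arrays 2 to 6, against 2005.3, 2616.0, 2145.6, 3023.1 and 2749.7 in whole fly arrays 2 to 6. The groups did not overlap, and tubule arrays 2 and 5 stood above the other 3 tubule arrays. The means were 193 ± 136 in tubule and 2510 ± 424 in whole flies (SD, n = 5 arrays each), and the mean ratio within pairs was 0.0779 ± 0.0543. The log2 fold change was -3.97 (SE 0.33, 95% interval -4.72 to -3.22, adjusted p = 2.8e-05, limma). All 5 tubule signals were above 50, which holds for no other gonad-rich form.

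RpS10a encodes a form of RpS10, a small subunit protein near the entry of the messenger RNA channel. Its signals were 22.9, 5.1, 3.1, 22.7 and 16.5 in tubule arrays 2 to 6, against 106.4, 155.6, 129.5, 199.3 and 202.9 in whole fly arrays 2 to 6. The groups again did not overlap, and arrays 2 and 5 were again the highest of the tubule. The means were 14.1 ± 9.48 in tubule and 159 ± 42.4 in whole flies (SD, n = 5 arrays each), with a log2 fold change of -3.86 (SE 0.44, 95% interval -4.88 to -2.83, adjusted p = 0.00017, limma). All 5 tubule signals were below 50, and no detection calls were used. Raising every signal under 50 to 50 gave a log2 fold change of -1.62, still called (adjusted p = 0.0023, limma).

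RpL10Aa encodes a form of RpL10A, the protein of the mobile stalk by which used transfer RNA leaves the large subunit. Its signals were 9.6, 0.4, 7.9, 13.3 and 4.9 in tubule arrays 2 to 6, against 47.1, 59.0, 90.7, 42.9 and 44.9 in whole fly arrays 2 to 6. All tubule signals were below all whole fly signals, but only 2 of the 10 signals, both from whole flies, reached 50. The means were 7.22 ± 4.87 in tubule and 56.9 ± 19.9 in whole flies (SD, n = 5 arrays each), and the log2 fold change was -3.58 (SE 0.73, 95% interval -5.26 to -1.91, adjusted p = 0.0035, limma). Tubule array 3, at 0.4, lay far below the rest, and without pair 3 the log2 fold change was -2.68 (adjusted p = 0.0017, limma). The call was lost when every signal under 50 was raised to 50 (log2 fold change -0.22, adjusted p = 0.44, limma).

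RpS19b, a form of the small subunit protein RpS19 that takes part in the maturation of ribosomal RNA, did not pass the test. Its signals were 9.7, 41.3, 10.7, 10.1 and 30.4 in tubule arrays 2 to 6, against 28.5, 33.2, 58.1, 36.1 and 28.8 in whole fly arrays 2 to 6. The groups overlapped, since tubule arrays 3 and 6 lay within the range of the whole fly arrays and gave ratios of 1.24 and 1.06 within their pairs. The other 3 pairs gave ratios of 0.184 to 0.34. The means were 20.4 ± 14.6 in tubule and 36.9 ± 12.2 in whole flies (SD, n = 5 arrays each), and the log2 fold change was -1.09 (SE 0.44, 95% interval -2.11 to -0.07, adjusted p = 0.07, limma). It was called lower without pair 3 (log2 fold change -1.44, adjusted p = 0.036, limma) and without pair 6 (-1.38, adjusted p = 0.048, limma). These are the 2 pairs with ratios above 1. Without pair 2, 4 or 5 it was not called (adjusted p 0.15 to 0.21, limma). The log2 fold change was -0.28 after quantile normalization (adjusted p = 0.61, limma). With signals under 50 raised to 50 it was -0.04 (adjusted p = 0.6, limma).

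RpL22-like, the partner of RpL22, a protein of the outer surface of the large subunit, did not pass the test either, and none of its 10 signals reached 50. Its signals were 18.2, 5.4, 2.9, 7.6 and 5.9 in tubule arrays 2 to 6, against 5.9, 27.1, 42.0, 25.9 and 22.1 in whole fly arrays 2 to 6. Pair 2 ran the other way from the other 4 pairs, with the brightest tubule signal beside the dimmest whole fly signal and a ratio of 3.08. The means were 8 ± 5.95 in tubule and 24.6 ± 12.9 in whole flies (SD, n = 5 arrays each), and the log2 fold change was -1.65 (SE 0.70, 95% interval -3.25 to -0.04, adjusted p = 0.079, limma). Without pair 2 it was -2.46 and was called lower (adjusted p = 0.0037, limma). Without the pair as a block it was called as well, at -1.65 (adjusted p = 0.028, limma). Without pair 3, 4, 5 or 6 it was not called (adjusted p 0.15 to 0.24, limma). After quantile normalization the log2 fold change was -0.81 (adjusted p = 0.34, limma). With signals under 50 raised to 50 it was 0.0, since all 10 signals lie below 50.

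RpL10Ab is the broad partner of RpL10Aa and is transcribed in most fly tissues. Its signals were 5458.5, 5917.9, 5363.3, 4726.2 and 5166.0 in tubule arrays 2 to 6, against 3732.8, 4780.6, 4255.4, 4514.3 and 4442.0 in whole fly arrays 2 to 6. The ranges overlapped, but within pairs tubule was above whole fly in 5 of 5, by ratios of 1.05 to 1.46. The means were 5330 ± 434 in tubule and 4350 ± 391 in whole flies (SD, n = 5 arrays each), and the log2 fold change was 0.29 (SE 0.09, 95% interval 0.08 to 0.51, adjusted p = 0.027, limma). This direction depends on the scaling of the arrays: the log2 fold change was 0.02 after quantile normalization, -0.04 with RpL32 held constant and 1.02 with each array's median subtracted. The call was also lost without pair 2, 3, 4 or 6, where the adjusted p lay between 0.051 and 0.077 (limma).

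**Figure D1:**
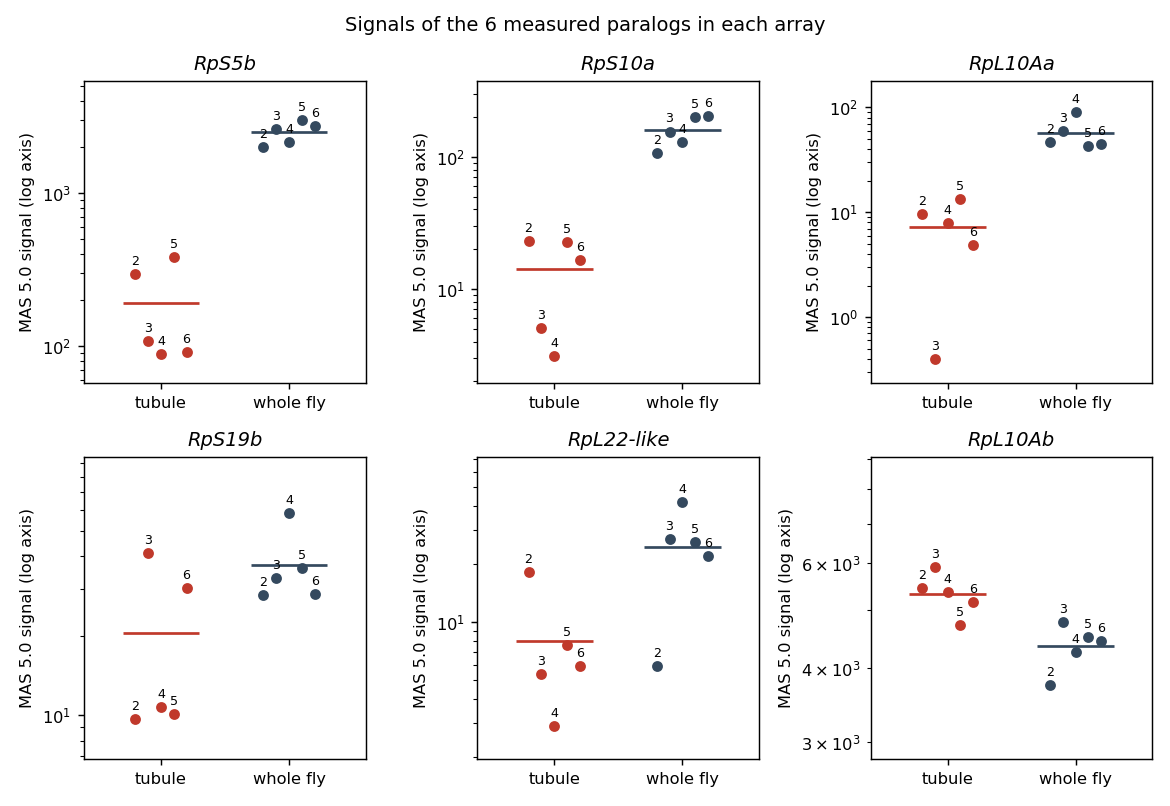
MAS 5.0 signal of the 6 measured paralogs on log axes (1 panel per gene, each with its own range), with tubule arrays in red left of whole fly arrays in blue, array numbers beside the points and bars at the mean of 5 arrays. RpS5b, RpS10a and RpL10Aa were apart between the groups, with tubule means of 193, 14.1 and 7.22 against whole fly means of 2510, 159 and 56.9, whereas RpS19b, RpL22-like and RpL10Ab overlapped.

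In all, 3 of the 6 measured members had every tubule signal below every whole fly signal, beside 29.6% of all probe sets, and 0 of 6 had every tubule signal above, beside 14.1%. Called lower were 3 of 6, beside 36.3% of all probe sets, and called higher 1 of 6, beside 16.8%. The 3 called lower are all gonad-rich forms and the 1 called higher is the broad form. With so few members, these shares describe the genes listed and are no test of them.

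The pair RpL10Aa and RpL10Ab is the one in which both partners could be set side by side. The log2 ratio of tubule to whole fly for RpL10Aa, less that for RpL10Ab, was -2.84, -7.51, -3.86, -1.76 and -3.41 in pairs 2 to 6. All 5 pairs thus had the gonad-rich form further toward whole flies than its partner. The mean difference was -3.88 ± 2.18 (SD, n = 5 pairs), a 14.7-fold gap between the ratios, with p = 0.0625 in an exact permutation test (two-sided, sign flips over pairs). That is the smallest p that 5 pairs can give, so this test cannot reach 0.05 with 5 pairs, and adjustment over the 3 partner comparisons made left it at 0.0625. The difference does not change with a linear rescaling of the arrays. It was -2.97 without pair 3, -2.99 after quantile normalization, -1.93 with 16 added to each signal and -0.51 with signals under 50 raised to 50.

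Of the other duplicated ribosomal protein genes, the RpS28 and RpL37 pairs were measured with both partners, and neither partner of the RpS14, RpS15A and RpL34 pairs had a single-gene probe set. RpS28a, a copy of the small subunit gene RpS28b, had signals of 3.7, 3.6, 4.0, 4.1 and 2.8 in tubule arrays 2 to 6, against 9.8, 24.4, 22.8, 9.0 and 18.5 in whole fly arrays 2 to 6. It was called lower in tubule (log2 fold change -2.11, adjusted p = 0.0028, limma), although all of its signals were below 50. RpS28b was bright and was higher in tubule, at 5620 ± 564 against 4300 ± 233 in whole flies (SD, n = 5 arrays each, adjusted p = 0.0078, limma), a direction that became no call with RpL32 held constant. The partner difference RpS28a less RpS28b was -2.49 ± 0.73 and was negative in 5 of 5 pairs (SD, n = 5 pairs, exact permutation p = 0.0625). It shrank to -0.38 with signals under 50 raised to 50.

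RpL37-2 and RpL37-1, a pair of genes for the large subunit protein RpL37, lay closer together in their ratios. RpL37-2 averaged 137 ± 11 in tubule and 158 ± 25.9 in whole flies (SD, n = 5 arrays each, adjusted p = 0.2, limma), and RpL37-1 averaged 5850 ± 629 in tubule and 4970 ± 375 in whole flies (SD, n = 5 arrays each, adjusted p = 0.11, limma). The partner difference RpL37-2 less RpL37-1 was -0.43 ± 0.29 (SD, n = 5 pairs, exact permutation p = 0.0625), but after quantile normalization it was 0.05 (exact permutation p = 0.75). With signals as deposited the 3 partner differences ranged from 1.35-fold to 14.7-fold between the ratios of partners. With signals under 50 raised to 50 they were -0.51 for RpL10A, -0.38 for RpS28 and -0.43 for RpL37 on the log2 scale, so the order of the 3 pairs by size rests on signals under 50.

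**Figure D2:**
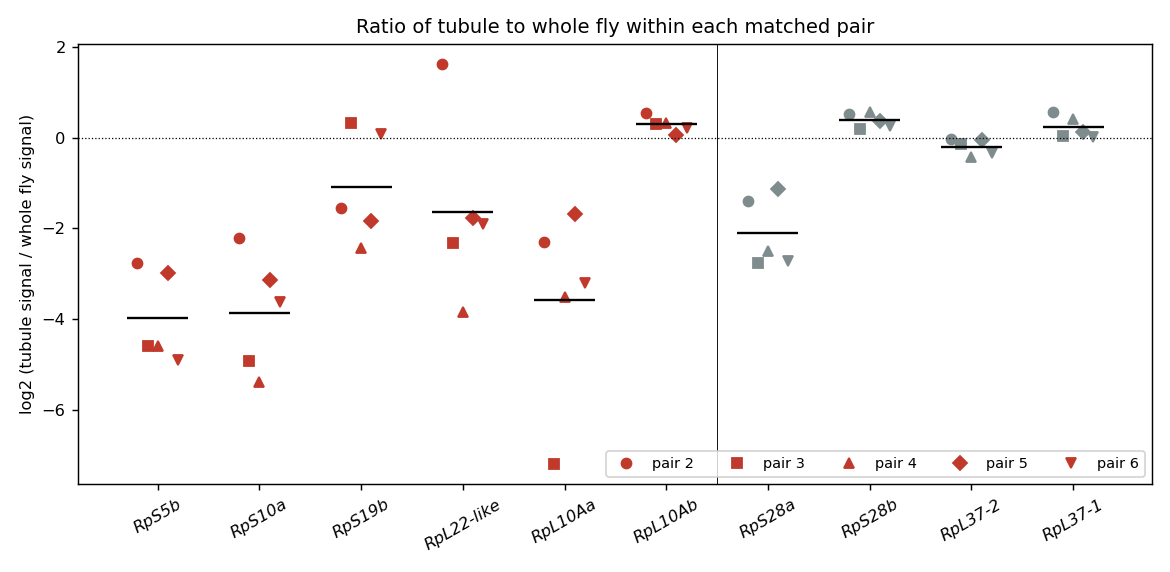
Log2 ratio of tubule to whole fly signal in each of the 5 matched pairs (marker shape) for the 6 measured paralogs in red and, right of the line, the RpS28 and RpL37 partners in grey, with bars at the mean. RpL10Aa averaged -3.58 and RpL10Ab 0.29 as scaled by the authors (the value for RpL10Ab was -0.04 with RpL32 held constant), and pair 2 is the pair in which RpL22-like lay above 0.

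The gonad-rich partners were set against the rest of the cytosolic ribosome, of which 28 other genes had a single-gene probe set. Of these, 18 were called higher in tubule and 2 lower, beside 16.8% and 36.3% of all probe sets. The other 8 did not pass, and the median log2 fold change of the 28 was 0.33. The higher calls rest on the scaling of the arrays, since they numbered 1 after quantile normalization, 0 with RpL32 held constant and 26 with the median of each array subtracted. The largest log2 fold changes were those of RpL3, a protein of the peptidyl transferase region (7180 ± 235 in tubule and 5070 ± 437 in whole flies, SD, n = 5 arrays each, adjusted p = 0.0015, limma), at 0.50, of RpL39, at 0.47, and of RpL40, which is made as a fusion with ubiquitin, at 0.45. RpL32, widely used as a reference transcript under the name rp49, was at 0.34 (adjusted p = 0.017, limma) and RpS7 had the smallest rise called, at 0.25 (adjusted p = 0.04, limma). RpL10Ab, at 0.29, fell within this narrow band.

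The 2 called lower were RpS28a and RpS29. RpS29, a small zinc-binding protein of the small subunit, averaged 97.9 ± 25.4 in tubule and 268 ± 41.3 in whole flies, a mean ratio of 0.368 ± 0.104 (SD, n = 5 pairs, log2 fold change -1.48, adjusted p = 9.9e-05, limma), and its groups did not overlap. The log2 fold changes of the 28 spanned -2.11 to 0.50, and that of RpS5b lay below this span. Those of RpS10a and RpL10Aa lay below it with signals as deposited, but with signals under 50 raised to 50 RpL10Aa was at -0.22, above RpS29, whose signals were all over 50. RpS19b and RpL22-like lay inside the span.

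**Figure D3:**
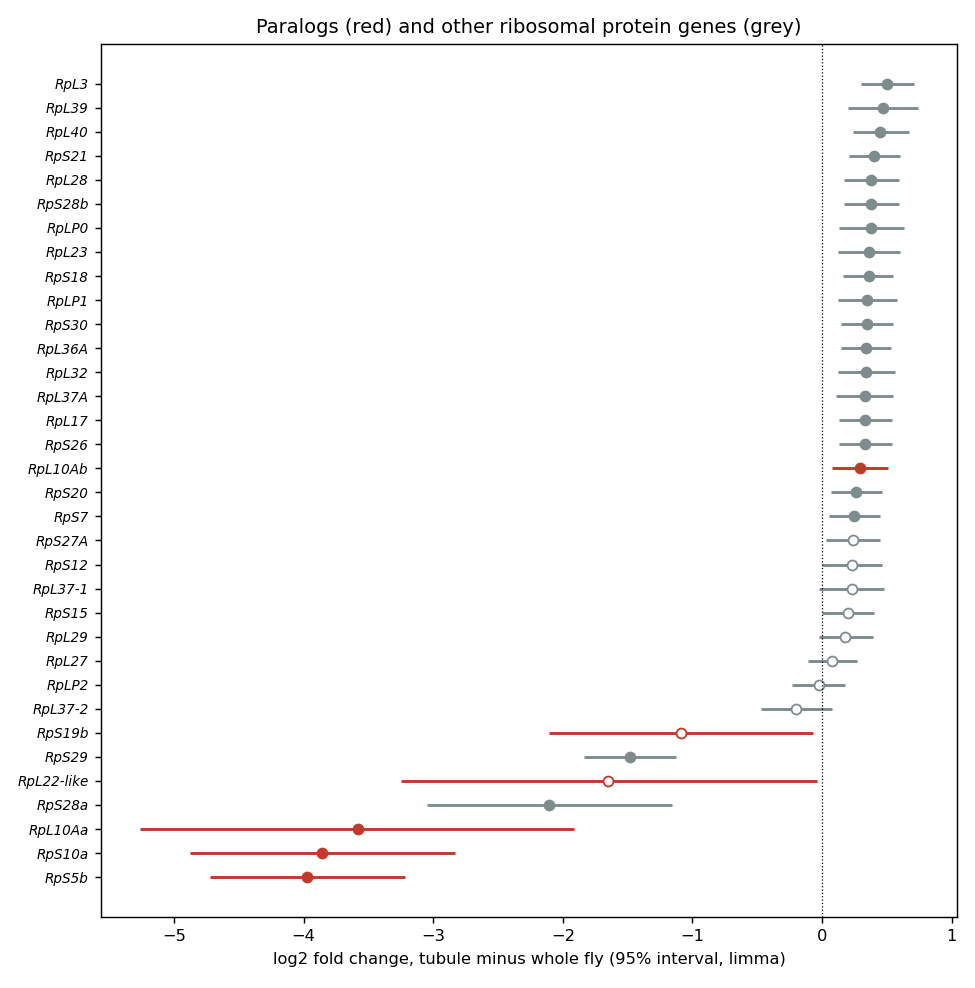
Log2 fold change of tubule over whole fly with its 95% interval from limma for the 6 measured paralogs (red) and the 28 other cytosolic ribosomal protein genes (grey), filled where the adjusted p was under 0.05. Most genes sit between -0.20 and 0.50 as scaled by the authors, a band that moves down by 0.34 with RpL32 held constant, while RpL10Aa, RpS10a and RpS5b sit at -3.58, -3.86 and -3.97 with signals as deposited (-0.22, -1.62 and -3.97 with signals under 50 raised to 50).

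The gonad-rich forms also differed between arrays of 1 tissue, and gonad markers differed with some of them. RpS5b spanned 4.27-fold among tubule arrays and 1.51-fold among whole fly arrays. As a share of the whole fly signal in its pair, RpS5b in tubule was 14.8%, 4.14%, 4.15%, 12.6% and 3.33% in pairs 2 to 6. The summed signal of the 15 female germline genes was 16.6%, 6.51%, 7.08%, 11.7% and 5.35% of that in whole flies in the same pairs, so both were highest in pairs 2 and 5. The oocyte gene osk had signals of 75.9, 2.0, 5.9, 78.5 and 13.4 in tubule arrays 2 to 6, and at least 496.5 in each whole fly array. The 15 genes did not all rank the tubule arrays this way. In tubule arrays 2 to 6, bcd had 3.3, 6.8, 12.3, 16.4 and 21.0, and piwi had 1.5, 2.4, 6.3, 13.4 and 7.4. The signals of stau were 55.7 to 63.1 in tubule.

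RpS10a in tubule was 21.5%, 3.28%, 2.39%, 11.4% and 8.13% of whole fly, and RpL10Aa 20.4%, 0.678%, 8.71%, 31% and 10.9%. The summed signal of the 22 testis and sperm genes was 28.2%, 12.7%, 7.17%, 31.2% and 6.28% of that in whole flies. Pairs 2 and 5 were thus the highest for RpS5b, RpS10a and RpL10Aa and for both gonad lists. RpS19b did otherwise, with its highest tubule signals in arrays 3 and 6. The testis sum includes bol, which had 218.7 to 303.0 in tubule arrays and was not called lower. Both lists had their lowest whole fly sums in array 2, which raises their shares in pair 2. In absolute terms the female germline list summed to 260.9 to 601.8 in tubule arrays and 2943 to 5150 in whole fly arrays. The testis list summed to 647.9 to 2544 in tubule arrays and 6902 to 15810 in whole fly arrays. The part of gonad RNA in the tubule signals of these paralogs was not tested.

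The other marker lists did not rank the arrays in this way throughout. The 12 accessory gland and ejaculatory bulb genes were 43.1%, 5.1%, 14.7%, 31.6% and 0.935% of whole fly in pairs 2 to 6, highest in pairs 2 and 5 as well. The 28 midgut digestive enzyme genes were 41.6%, 45%, 3.56%, 32.6% and 9.4%, and stood highest in pair 3. Yolk, chorion and vitelline membrane genes of the egg were 17.8%, 10.1%, 13.7%, 13.6% and 8.5%. In tubule the yolk genes Yp1, Yp2 and Yp3 were the brightest of this list and weigh most in its sum. The vitelline membrane gene Vm26Aa had 610.9, 23.6, 15.0, 535.1 and 23.7 in tubule arrays 2 to 6. Vm32E, Vm34Ca and psd were also highest in tubule arrays 2 and 5. Other genes of the list were not, such as Cp36, with 46.3, 67.7, 48.1, 13.6 and 50.4.

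The arrays were also compared without pairs 2 and 5, an alternative chosen after these marker signals were seen. Since these pairs also had the highest ratios of tubule to whole fly for RpS5b, RpS10a, RpL10Aa and RpL22-like themselves, lower values for these genes follow from the choice and are given as a description. The log2 fold change was then -4.70 for RpS5b (adjusted p = 1.2e-06, limma), -4.65 for RpS10a (adjusted p = 0.00015, limma), -4.64 for RpL10Aa (adjusted p = 0.0036, limma) and -2.70 for RpL22-like (adjusted p = 0.0073, limma). For RpS19b it was -0.68, with no call. Called lower were 4 of 6 members, beside 31.2% of all probe sets, and called higher 1 of 6, beside 14%. The partner difference RpL10Aa less RpL10Ab was -4.93 (3 pairs, exact permutation p = 0.25, the smallest that 3 pairs can give).

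Among whole fly arrays the order of RpS5b, highest in array 5 and then in 6, 3, 4 and 2, was also that of the summed female germline genes. RpL10Aa, RpS19b and RpL22-like were each highest in whole fly array 4. The testis and sperm list was highest there too, at 15810, as was the accessory gland and ejaculatory bulb list, at 17340. Whole fly array 2 was the lowest for RpS5b, RpS10a, RpS19b and RpL22-like, and the egg yolk and shell genes had a median deviation there of -1.07 (log2, 13 genes) from their mean over the whole fly arrays. RpL10Ab was also lowest in that array, at 3732.8. With 5 arrays these orders are descriptions and carry no test.

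**Figure D4:**
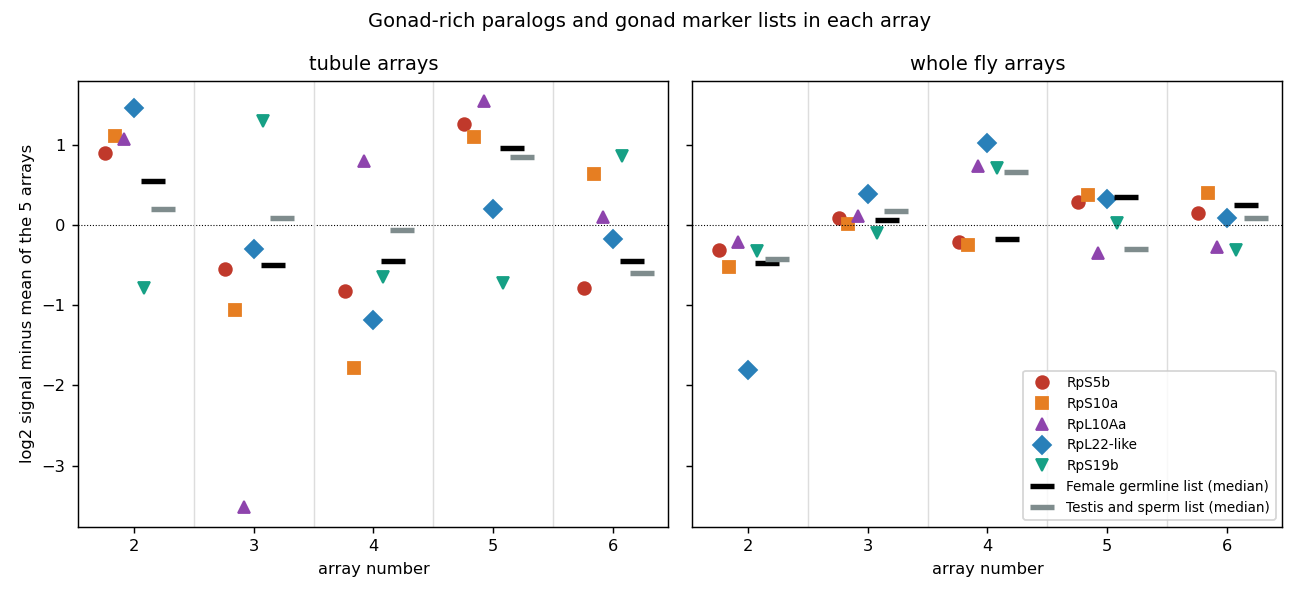
Log2 signal of each gonad-rich paralog minus its mean over the 5 arrays of 1 group, by array number, with tubule arrays in the left panel and whole fly arrays in the right panel, and horizontal bars at the median of the same quantity over 15 female germline genes (black) and 22 testis and sperm genes (grey). RpS5b and RpS10a stood above their mean in tubule arrays 2 and 5, as did both lists. RpS10a was also above its mean in tubule array 6 (0.63), where the female germline (-0.45) and testis (-0.6) lists were below. RpL10Aa lay at -3.51 in tubule array 3 and above its mean in every other tubule array, and RpS19b was below its mean in tubule arrays 2 and 5.

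Over the 10 arrays, log2 signals of RpS5b and RpS10a had a Pearson correlation of 0.962, those of RpS5b and RpL10Aa 0.849 and those of RpS10a and RpL10Aa 0.838, whereas RpL10Aa and RpL10Ab had -0.82 and RpS5b and RpS19b 0.449. All of these points share the contrast of 5 tubule with 5 whole fly arrays and carry no p. Among 5893 probe sets of a single gene with a mean of at least 50 in whole flies, the 3 genes most alike to RpS5b over the 10 arrays were Pen, an importin alpha (0.998), yl, the yolk protein receptor of the oocyte (0.997), and GILT1 (0.997). For RpS10a they were msb1l (0.994), CG10254 (0.993) and CG8924 (0.993), and for RpL10Aa CG11112 (0.988), Paf-AHalpha (0.978) and bond (0.975). The 2 members not called were followed less closely, RpS19b by CG10598 (0.961), CG7083 (0.892) and Rsbp15 (0.892), and RpL22-like by Cdc7 (0.938), CG17192 (0.908) and CG15641 (0.894). The cut at 50 was made on whole flies alone, where the gonad-rich forms have their higher means. The genes most alike are therefore a description and carry no test of a source.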

How the data were processed

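Signal intensities were deposited by the authors as Affymetrix MAS 5.0 values of 14010 probe sets on the Drosophila genome array: after background correction, differences between perfect match and mismatch probes were combined robustly into 1 value per probe set, and arrays were scaled linearly. The values ran from 0.1 to 14002.8 on a linear scale, with a mean of 100.0 in each array after trimming 2% at each end, and held no detection calls. The 44 array controls were left out. In the platform annotation 12443 of 13966 probe sets name 1 gene, 327 several and 1196 none; 12394 of the single genes were matched to RefSeq symbols. No reads underlie arrays, so their number, 5 per group, limits the precision.

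Log2 signals were compared with limma 3.58.1 in R 4.3.3 (lmFit, eBayes with a trend, pair as a block, two-sided), with p adjusted by Benjamini and Hochberg over 13966 probe sets and calls at an adjusted p under 0.05. Partners were compared by an exact sign-flip test on log2 ratios. The pairing rests on the methods, by which both samples of a number came from 1 culture; checked over 6125 probe sets with a mean of at least 50, the correlations between same-numbered arrays, each as deviations from its group mean, were 0.003, 0.085, -0.089, -0.006 and 0.091. The highest with an array of another number was 0.14, 0.121, 0.167, 0.155 and 0.111, so the signals themselves do not show the pairing. Scripts were tested on simulated data.

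Named are the members, the 3 highest and 3 lowest called of the other ribosomal protein genes, RpL32, further duplicated genes, and the 3 genes most alike to each gonad-rich form. The members and all lists were chosen with earlier results of these data known. Alternatives were quantile normalization, RpL32 held constant, subtraction of array medians, signals under 50 set to 50 and 16 added to each signal. Others were a mean signal of at least 50 over all arrays, no block, robust eBayes without a trend, the methods' t-test and leaving out pairs. Probe sequences were not used here.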

Additional observations from a re-analysis of the deposited data

Results flagged for a closer look

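RpL10Aa in tubule array 3 had a signal of 0.4, the lowest of 5 tubule arrays. On the log2 scale its gap to the next array was 0.715 of the range of the 5, above Dixon's critical value of 0.71. It is the only such value among 12 groups of 5 arrays checked (6 members in tubule and in whole flies), and chance picks out about 1 in 20 groups.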

How the results depend on the processing

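Over the alternatives tried, RpS5b (log2 fold change -4.70 to -3.24, adjusted p 1.2e-06 to 0.0021, limma) and RpS10a (-4.65 to -1.62, adjusted p 1.7e-05 to 0.0023) were called lower in 14 of 14, and RpL10Aa (-4.64 to -0.22, adjusted p 0.0002 to 0.44) in 12 of 13, all but that with signals under 50 set to 50. RpS19b was called in 3 of 13 and RpL22-like in 4 of 13. The tallies and ranges of each gene include the setting without pairs 2 and 5, chosen after the marker signals were seen. That setting gave the lowest log2 fold changes of RpS5b, RpS10a, RpL10Aa and RpL22-like, which follow from the choice. It also gave 1 of the 4 calls of RpL22-like. RpL10Ab was called higher in 6 of 14 (adjusted p 6.9e-05 to 0.84) and was at -0.04 with RpL32 held constant (adjusted p 0.77). Members called higher, 1 as scaled, numbered 0 after quantile normalization (29.7% of all probe sets called higher) and with RpL32 held constant (10.4%). They also numbered 0 with signals under 50 set to 50 (12.1%) and with robust eBayes without a trend (15.6%). When a pair was left out they numbered 0 to 1, beside 14% to 15.9% of all probe sets. Members called lower, 3 as scaled, numbered 5 with RpL32 held constant (where 46.2% of all probe sets were called lower). They numbered 3 to 4 when a pair was left out, beside 31.9% to 34.9% of all probe sets. Without the replicate block, members called lower numbered 4, beside 37.6% of all probe sets (5247), and 2491 probe sets were called higher. Of all probe sets, the 2342 called higher became 4148 after quantile normalization, 1451 with RpL32 held constant and 5177 with medians subtracted. The 5076 called lower became 6453 with RpL32 held constant, 3446 after quantile normalization, 2887 with medians subtracted, 2453 with signals under 50 set to 50 and 2642 with a mean of at least 50. The share of calls that were higher was 31.6% as scaled, 54.6% after quantile normalization, 18.4% with RpL32 held constant and 64.2% with medians subtracted, and the median log2 fold change of all probe sets was -0.32, 0.18, -0.66 and 0.41 in the same order. Other ribosomal protein genes called higher, 18 as scaled, numbered 1 after quantile normalization, 0 with RpL32 held constant, 11 with signals under 50 set to 50, 2 with eBayes without a trend and 12 to 18 when a pair was left out. Those called lower, 2 as scaled, numbered 4 after quantile normalization, 4 with RpL32 held constant, 1 with signals under 50 set to 50 and 1 with a mean of at least 50. The difference RpL37-2 less RpL37-1 was 0.05 after quantile normalization, and RpL10Aa less RpL10Ab was -4.41 to -2.97 when a pair was left out. The methods' t-test, which the study applied to dChip values together with filters on fold and difference, was run here on the MAS 5.0 signals with the p threshold alone, and called 2114 probe sets higher and 4295 lower, or 2492 and 4958 after Benjamini-Hochberg adjustment. The cause of these shifts was not tested. RpS19b, RpL22-like and RpL10Aa were not tested with a mean of at least 50, because their means over all 10 arrays lie below it, and no gene had a further probe set to try. Signals under 50 limit the fold changes of RpS10a, RpL10Aa, RpS19b and RpL22-like.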
